A study of Mus musculus with 20 samples.

Results

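The insulin and insulin-like growth factor (IGF) system genes described here were 10 of the 55487 genes in the count tables, matched by gene symbol. Their choice was made with earlier results of these data known. The 10 genes were the ligand Igf1, the receptors Igf1r, Insr and Igf2r, the receptor adaptors Irs1 and Irs2, the IGF binding proteins Igfbp2, Igfbp4 and Igfbp5, and the protease Pappa. Granulosa cells (GCs) came from antral follicles of ctrl mice, an unselected outbred line from Dummerstorf, and of FL1 mice, an outbred Dummerstorf line selected for high fertility over many generations and raised from the same founder animals. Females of both lines were young adults, untreated and without a transgene, and were sampled in estrus or in diestrus as judged by vaginal smear. Each of the 4 groups (ctrl estrus, FL1 estrus, ctrl diestrus, FL1 diestrus) held 5 mice, with 1 library per mouse from pooled large follicles. By the methods of the study, oocytes and cumulus cells were removed from them. RNA was sequenced from the 3′ end of the transcripts (QuantSeq), and 5446576 to 8257041 reads per library were counted on genes (median 6457586).

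Insulin and the IGFs bind related receptor tyrosine kinases, which phosphorylate the insulin receptor substrates and through them activate phosphoinositide 3-kinase (PI3K), the kinase AKT and mTOR. In the ovary, IGF1 made by GCs enhances the response of the same cells to FSH. IGF binding proteins keep IGF away from its receptor, and the protease PAPP-A releases it by cutting IGFBP4 and IGFBP5. In mouse ovaries Igf1 and Igf1r are known as genes of GCs, and loss of either disturbs the growth of follicles.

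The labelled cell type was checked against markers. The 11 GC markers summed to 8023 CPM (read counts divided by library size and set to a common scale of 1000000 reads) or more in all 20 libraries. Inha (2725 to 7880 CPM) and Gja1 (2054 to 7737 CPM) had the highest medians of them in every group. Fshr (31.6 to 202 CPM) and Cyp19a1 (5.10 to 226 CPM) added little to the sum. Amh was near 0 in diestrus, with a median of 0.27 CPM in ctrl and 0 CPM in FL1 mice. RNA of other cells was present too. The 6 theca markers summed to 157 to 419 CPM, with Insl3 at 0 in 3 of the 4 groups, and Cyp17a1 rose from estrus to diestrus in ctrl mice (9.29 to 12.1 CPM against 11.5 to 233 CPM). The 6 oocyte markers, all detected in every group, summed to 50.6 to 494 CPM, although oocytes had been taken out. The other marker lists were detected in every group as well. The 7 leucocyte markers summed to 39.1 to 105.5 CPM in FL1 estrus and 18.3 to 42.3 in ctrl estrus. In diestrus these sums were 9.91 to 70.8 CPM in FL1 and 7.69 to 19.1 in ctrl mice. Adjusted for stage, all 7 leucocyte markers were higher in FL1 mice (median log2 difference 2.09), and Lyz2 alone among them was called. The summed level of 7 stromal fibroblast markers (Col1a1, Col1a2, Col3a1, Dcn, Lum, Pdgfra, Tcf21, all detected in every group) ranged from 567 to 1254 CPM in ctrl estrus, from 862 to 1721 in FL1 estrus, from 147 to 671 in ctrl diestrus and from 138 to 1183 in FL1 diestrus. Of the 5 luteal markers, 3 (Akr1c18, Lhcgr and Star) were higher in FL1 than in ctrl mice in estrus, with summed levels of 3840 to 8016 CPM against 272 to 1494. Library 1 of FL1 diestrus stood apart from the other 4 of its group: 29 genes differed between the stages in FL1 mice with it and 178 without it.

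All 10 genes passed the filter on low counts in every comparison. Some of them changed with stage. Between the lines none was called in the edgeR fits given here, and the result for Igfbp5 in estrus depended on the processing. Because the list was chosen with earlier results of these data known, its calls are set beside the share over all genes as a description. In ctrl mice 3 of the 10 changed from estrus to diestrus: Igfbp4 and Igfbp2 fell, and Irs1 rose (edgeR quasi-likelihood test, adjusted p of 0.05 or less over all genes tested). In the same comparison 1.36% of the 12850 genes tested passed. With both lines in 1 fit, adjusted for line, 4 of the 10 changed (Igfbp4 and Igfbp2 fell, Irs1 and Insr rose) beside 3.17% of 14938 genes. None of the 10 passed in FL1 mice alone, where 0.221% of 13114 genes did. None passed between the lines in estrus (0.769% of 13007 genes), in diestrus (0.248% of 12886 genes) or adjusted for stage (1.21% of 14938 genes). The median log2 change of the 10 genes was 0.08 for the adjusted stage effect, beside 0.02 over all genes tested, since risers and fallers balanced.

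**Figure D1:**
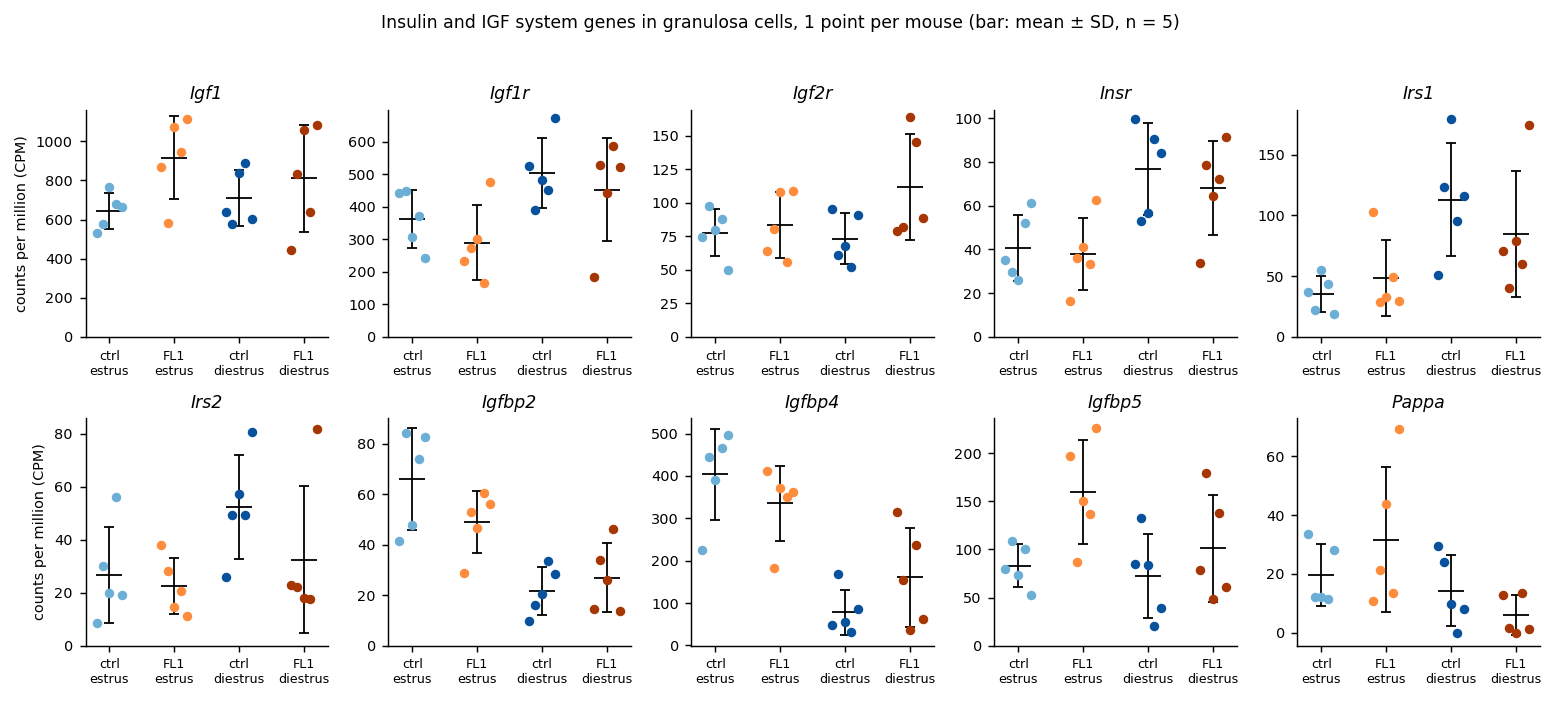
Level of each of the 10 genes in CPM (vertical axes from 0) in the 4 groups. Each point is 1 mouse and the bar is the mean with the SD of 5 mice. Igfbp4 and Igfbp2 lay lower in diestrus, with no overlap in ctrl mice, Irs1 and Insr lay higher, and Igf1 stayed between 445 and 1113 CPM in all 20 mice.

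Igfbp4, which binds IGFs and is cleaved by PAPP-A, gave the largest change of the 4 called genes. It lies on chromosome 11 (GRCm38 build, 99041244 to 99054392, plus strand). In ctrl estrus the 5 mice had 225, 445, 389.8, 465 and 496 CPM, and in ctrl diestrus 47.8, 168, 55.0, 32.3 and 86.6 CPM. Every diestrus mouse lay below every estrus mouse, which held for 1.84% of the genes tested. The level fell by 2.38 on the log2 scale (SE 0.37, 95% interval -3.16 to -1.60, adjusted p = 0.00532), which is 5.21-fold, and the call held in each of the 10 fits that left out 1 mouse. In FL1 mice the levels were 411, 183, 372.5, 350.0 and 362 CPM in estrus and 315, 154, 37.1, 236 and 62.4 CPM in diestrus. The 2 highest FL1 diestrus mice overlapped the estrus range, and the log2 change was -1.07 (95% interval -1.97 to -0.17, adjusted p = 0.400). Without library 1 of FL1 diestrus it was -1.47 (adjusted p = 0.0926). With both lines in 1 fit Igfbp4 fell by 1.71 (SE 0.33, adjusted p = 0.00322), and the difference between the lines in this fall was 1.31 (95% interval 0.08 to 2.55, unadjusted p = 0.0376, adjusted p = 1.00).

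Markers of several other cell types moved beside Igfbp4, and in bulk samples fewer cells of a type and less RNA per cell cannot be told apart. All 7 stromal markers had negative log2 changes from estrus to diestrus in ctrl mice, with a median of -1.34, and 1 of them, Col3a1, passed the test. The tested markers of smooth muscle (4), endothelium (5) and leucocytes (4) were all negative there too, with medians of -0.68, -0.76 and -1.08 and none called, and of the GC markers Fshr rose and Amhr2 fell. Over both lines the GC markers Fshr, Cyp19a1, Inhba and Gja1 and the theca marker Cyp17a1 rose, and the luteal markers Star and Cyp11a1 fell. The part of these cells in the changes of the 10 genes was not tested beyond the stromal marker score. With the stromal marker score as a covariate, the log2 change of Igfbp4 was -1.78 (adjusted p = 0.0727) in ctrl mice and -1.09 (adjusted p = 0.0591) over both lines. By the correlation of log2 CPM over the 20 libraries, the 3 genes of 13643 most like Igfbp4 were Cygb (Pearson r = 0.86), Ifitm3 (r = 0.86) and the stromal marker Col3a1 (r = 0.85). These r values are descriptions, and the 20 points share the 4 groups.

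Igfbp2, which also binds IGFs, has its gene on chromosome 1 (72824503 to 72852474, plus strand). It was measured at 41.3, 84.4, 48.0, 74.1 and 82.8 CPM in ctrl estrus and at 9.66, 16.0, 20.6, 33.7 and 28.3 CPM in ctrl diestrus. The groups did not overlap. The level fell by 1.62 on the log2 scale (SE 0.33, 95% interval -2.32 to -0.92, adjusted p = 0.0223), or 3.07-fold. The call was lost without ctrl estrus mouse 2 (adjusted p = 0.0686), 4 (0.0592) or 5 (0.0524) and without ctrl diestrus mouse 3 (0.0559). FL1 mice had 29.0, 52.8, 46.7, 60.6 and 56.3 CPM in estrus and 14.5, 33.9, 26.2, 46.2 and 13.9 CPM in diestrus. In them 3 diestrus mice lay below the lowest estrus mouse, and the log2 change of -0.88 (95% interval -1.59 to -0.16) had an adjusted p of 0.381. Over both lines Igfbp2 fell by 1.24 (SE 0.25, adjusted p = 0.00501), and this call held in all 20 fits that left out 1 mouse. With the stromal marker score as a covariate the change over both lines was -1.19 (adjusted p = 0.0591) and that in ctrl mice -1.24 (adjusted p = 0.358). The genes most like Igfbp2 over the 20 libraries were Ncam1 (r = 0.88), Slc11a2 (r = 0.83) and Zdhhc3 (r = 0.81).

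Igfbp5 lies tail to tail with Igfbp2 on chromosome 1 (72857932 to 72874884, minus strand), with 5457 bp between the ends of the genes. Igfbp5 was at 79.9, 108.6, 73.3, 100.7 and 52.6 CPM in ctrl estrus and at 197, 87.2, 150.1, 137 and 226 CPM in FL1 estrus. Only FL1 mouse 2 lay within the range of the ctrl mice. Of the 10 genes Igfbp5 had the lowest p between the lines in estrus, with a log2 difference of 0.94 (SE 0.26, 95% interval 0.40 to 1.48, 1.91-fold), but its adjusted p was 0.108. It passed the test without FL1 estrus mouse 2 (log2 difference 1.09, adjusted p = 0.0427), with DESeq2 (0.95, adjusted p = 0.0301) and without a filter on low counts (0.95, adjusted p = 0.0121). In diestrus the levels were 84.8, 133, 83.3, 20.4 and 39.6 CPM in ctrl mice and 78.8, 179, 48.7, 137 and 61.0 CPM in FL1 mice, so that the lines overlapped widely (log2 difference 0.50, 95% interval -0.42 to 1.41, adjusted p = 1.00). Its change from estrus to diestrus was -0.21 (95% interval -0.99 to 0.58) in ctrl mice and -0.67 (95% interval -1.37 to 0.03) in FL1 mice. Adjusted for stage, the log2 difference of Igfbp5 between the lines was 0.71 (95% interval 0.17 to 1.26, adjusted p = 0.252).

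The mixture of binding protein reads is given as shares. The 3′ method gives reads from the end of a transcript, so these shares are of reads and are not scaled to length. Igfbp4 made up 64.1% to 74.7% of the reads of Igfbp1 to Igfbp6 in ctrl estrus (2403 to 4620 reads per library) and 53.6% to 62.9% in FL1 estrus. In ctrl diestrus it made up 31.2% to 54.4% (up to 2409 reads), and the range in FL1 diestrus was 31.9% to 73.1%, with library 1 the highest. The share of Igfbp5 was 7.92% to 22.8% in ctrl estrus, 23.7% to 33.4% in FL1 estrus, 22.7% to 59.6% in ctrl diestrus and 18.3% to 46.6% in FL1 diestrus. In estrus the ranges of the 2 lines did not meet in either share, by a narrow margin and with no test made of it. No rate over other genes was computed for such shares. Both shares are parts of the same total and are not separate results. In CPM the lines overlapped in estrus for Igfbp4 and for Igfbp5. The summed level of the 6 binding proteins was 351 to 664 CPM in ctrl estrus, 338 to 675 in FL1 estrus, 89.8 to 323 in ctrl diestrus and up to 431 in FL1 diestrus (median 384).

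**Figure D2:**
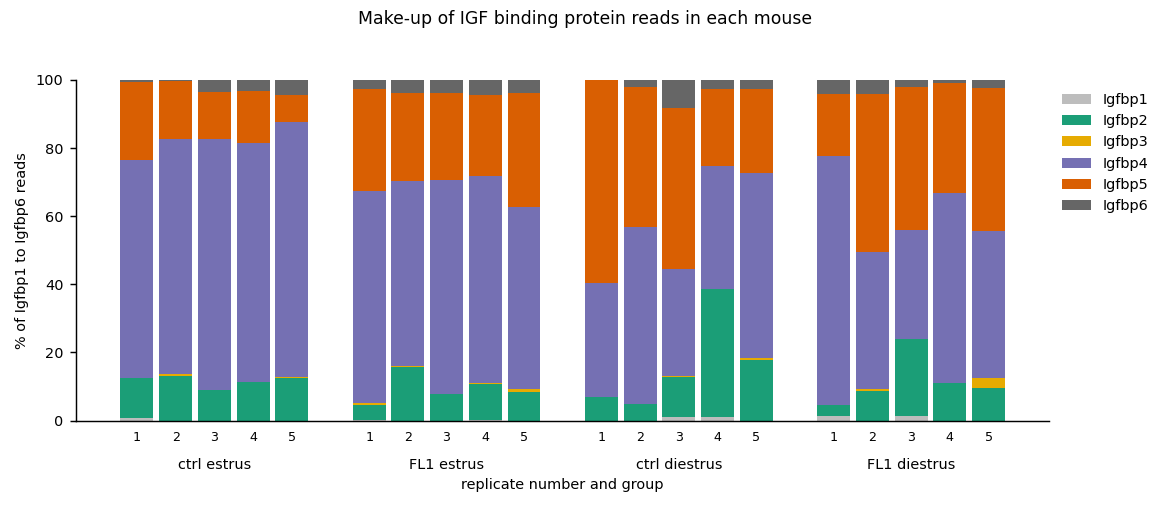
Share of each binding protein gene among the reads of Igfbp1 to Igfbp6 (vertical axis, percent), with 1 stacked bar per mouse, in 4 groups of 5. Igfbp4 filled 53.6% to 74.7% of the bars in estrus and 31.2% to 73.1% of those in diestrus.

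Pappa, the gene of the protease that cuts IGFBP4, lies on chromosome 4 (65124174 to 65357509, plus strand) and had the fewest reads of the 10 genes. Its levels were 33.6, 12.3, 12.2, 11.5 and 28.1 CPM in ctrl estrus, and 29.5, 24.2, 9.63, 0 and 8.18 CPM in ctrl diestrus. In FL1 mice they were 10.9, 21.3, 43.6, 13.4 and 69.4 CPM in estrus and 13.0, 1.51, 0, 13.7 and 1.37 CPM in diestrus. The mice at 0 were 1 in each diestrus group, and the spread within groups was wide. The log2 change from estrus to diestrus was -2.43 in FL1 mice (95% interval -4.20 to -0.66, adjusted p = 0.295), -0.45 in ctrl mice (95% interval -2.03 to 1.13) and -1.42 over both lines (95% interval -2.76 to -0.08, adjusted p = 0.299). Without a filter on low counts it passed the test in FL1 mice (adjusted p = 0.00337), and so did Igfbp4 (adjusted p = 0.0232). Small p were more frequent over all genes in that setting: 4294 of 24355 were under 0.05 unadjusted, against 1243 of 13114 with the filter.

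Irs1, an adaptor that links the activated receptors to PI3K, rose in diestrus. Its gene is on chromosome 1 (82233101 to 82291416, minus strand). Its levels were 37.1, 22.4, 55.1, 43.6 and 18.7 CPM in ctrl estrus and 51.0, 124, 179, 95.3 and 116.1 CPM in ctrl diestrus. All but ctrl diestrus mouse 1 lay above the highest estrus mouse. The log2 change was 1.67 (SE 0.33, 95% interval 0.96 to 2.37, adjusted p = 0.0193), or 3.18-fold, and it missed the threshold without ctrl estrus mouse 2 (adjusted p = 0.0577) and without ctrl diestrus mouse 3 (0.0584) or 5 (0.0506). In FL1 mice Irs1 was at 102.6, 29.1, 33.3, 49.0 and 29.6 CPM in estrus and at 71.1, 40.4, 79.1, 59.7 and 174 CPM in diestrus. FL1 estrus mouse 1 lay inside the diestrus range, and the log2 change of 0.79 (95% interval -0.05 to 1.62) had an adjusted p of 0.574. Over both lines Irs1 rose by 1.24 (SE 0.29, adjusted p = 0.0135), and by 1.07 (adjusted p = 0.0532) without FL1 diestrus mouse 5. Irs1 was also called with the stromal marker score as a covariate, at 2.24 in ctrl mice (adjusted p = 0.00867) and at 1.52 over both lines (adjusted p = 0.0228). The antisense gene Gm9747, which covers the 3′ end of Irs1, had no read in any library. The genes most like Irs1 over the 20 libraries were Elf1 (r = 0.86), Zfp456 (r = 0.82) and Cnot6 (r = 0.82).

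Irs2, the other adaptor, lies on chromosome 8 (10984681 to 11008458, minus strand). It was at 8.47, 30.0, 19.9, 56.3 and 19.3 CPM in ctrl estrus and at 25.9, 49.1, 57.1, 49.2 and 80.7 CPM in ctrl diestrus, and the groups overlapped (log2 change 0.96, 95% interval 0.09 to 1.83, adjusted p = 0.365). In FL1 mice it was at 37.9, 28.1, 14.7, 20.7 and 11.2 CPM in estrus and at 22.8, 22.1, 18.04, 17.6 and 81.9 CPM in diestrus. Mouse 5 of FL1 diestrus was the highest of its group for Irs2, Irs1 and Insr, and without it the log2 change of Irs2 in FL1 mice was -0.17 in place of 0.51. Over both lines the change of Irs2 was 0.75 (95% interval 0.09 to 1.41, adjusted p = 0.258).

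Insr, the insulin receptor gene on chromosome 8 (3122061 to 3279617, minus strand), rose in diestrus over both lines. The ctrl mice had 35.1, 29.8, 26.2, 52.0 and 61.1 CPM in estrus and 99.8, 52.9, 56.7, 90.4 and 84.2 CPM in diestrus. The FL1 mice had 16.5, 36.3, 41.0, 33.3 and 62.6 CPM in estrus and 33.9, 78.4, 64.7, 72.3 and 91.3 CPM in diestrus. The ranges of the stages overlapped in each line. The log2 change was 0.90 in ctrl mice (95% interval 0.32 to 1.49, adjusted p = 0.143) and 0.83 in FL1 mice (95% interval 0.15 to 1.51, adjusted p = 0.381), and the pooled fit over both lines called the rise of 0.88 (SE 0.22, 1.84-fold, adjusted p = 0.0205). That call was lost without FL1 diestrus mouse 5 (adjusted p = 0.0512) and with the stromal marker score as a covariate (0.76, adjusted p = 0.227). The most like genes were Psd3 (r = 0.83), Togaram1 (r = 0.80) and Plod2 (r = 0.80).

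Igf1r, the receptor for IGF1, moved the same way without passing the test. Its gene is on chromosome 7 (67952827 to 68233668, plus strand). It was at 442, 448, 308, 372 and 244 CPM in ctrl estrus, 232, 273, 299.7, 166 and 476 CPM in FL1 estrus, 524, 389.8, 481, 452 and 673 CPM in ctrl diestrus, and 186, 529.5, 442, 588 and 521 CPM in FL1 diestrus. The lowest diestrus value was that of FL1 mouse 1. The adjusted stage effect was 0.56 (SE 0.19, 95% interval 0.17 to 0.95, adjusted p = 0.106). It passed without FL1 diestrus mouse 1 (0.65, adjusted p = 0.0206) and without FL1 estrus mouse 5 (0.67, adjusted p = 0.0452). The number of Igf1r reads per Insr read was 3.99 to 15.01 in ctrl estrus, 4.99 to 14.1 in FL1 estrus, 5.002 to 8.48 in ctrl diestrus and 5.48 to 8.13 in FL1 diestrus, so that the ratio overlapped in all 4 groups.

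**Figure D3:**
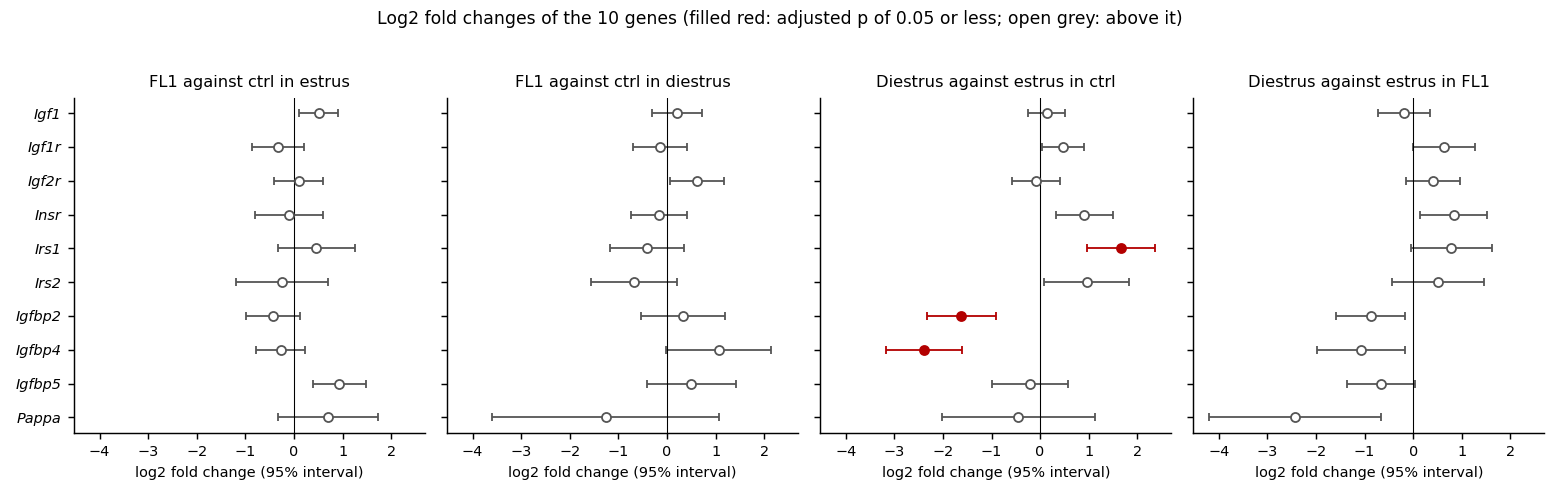
Log2 fold changes of the 10 genes (horizontal axes) in the 4 comparisons of 5 mice against 5, as points with 95% intervals. Filled red points passed an adjusted p of 0.05: Irs1, Igfbp2 and Igfbp4 for diestrus against estrus in ctrl mice, and no gene in the other 3 panels.

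Igf2r, which carries IGF2 and lysosomal enzymes and does not signal through IRS proteins, lies on chromosome 17 (12682406 to 12769664, minus strand). Its group means were 77.7 ± 17.7 CPM in ctrl estrus, 83.4 ± 24.4 in FL1 estrus, 73.3 ± 18.9 in ctrl diestrus and 111.7 ± 39.8 in FL1 diestrus (SD, n = 5). In diestrus the 2 highest FL1 mice, at 145 and 164 CPM, lay above all ctrl mice, of which the highest had 94.98 CPM. The log2 difference between the lines there was 0.61 (95% interval 0.06 to 1.17, adjusted p = 0.844). The stage changed it by -0.09 in ctrl mice (95% interval -0.58 to 0.40) and by 0.41 in FL1 mice (95% interval -0.15 to 0.97).

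Igf1, the ligand, had the most reads of the 10 genes (2846 to 6855 per library) and ranked above 99.4% of the genes tested by its mean of 770.2 CPM. It lies on chromosome 10 (87858265 to 87937042, plus strand). The means were 644 ± 92.2 CPM in ctrl estrus, 916 ± 211 in FL1 estrus, 709.5 ± 142 in ctrl diestrus and 811 ± 274 in FL1 diestrus (SD, n = 5). In estrus 4 FL1 mice (869.8 to 1113 CPM) lay above the highest ctrl mouse (767 CPM), and FL1 mouse 2 was at 580.3 CPM. The log2 difference between the lines in estrus was 0.51 (SE 0.19, 95% interval 0.10 to 0.92), with an adjusted p of 0.305, and in diestrus 0.20 (95% interval -0.31 to 0.71). The stages differed by 0.13 in ctrl mice (95% interval -0.25 to 0.51) and by -0.19 in FL1 mice (95% interval -0.72 to 0.34). Over both lines the 95% interval of the stage effect was -0.34 to 0.31. Adjusted for stage, the log2 difference of Igf1 between the lines was 0.35 (95% interval 0.03 to 0.68, adjusted p = 0.399). Of the 10 genes only Igfbp5 and Igf1 had an unadjusted p under 0.05 for the line effect adjusted for stage.

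Between the lines the intervals of the remaining genes included 0 in both stages. The widest was that of Pappa in diestrus (log2 difference -1.27, 95% interval -3.59 to 1.06). Igfbp4 was at -0.27 in estrus (95% interval -0.77 to 0.23) and at 1.06 in diestrus (95% interval -0.02 to 2.14, unadjusted p = 0.0536, adjusted p = 0.899). The 7 stromal markers all had positive log2 differences between the lines in diestrus (median 1.21), none of them called, and their sums overlapped. With the stromal marker score as a covariate the difference of Igfbp4 adjusted for stage turned from 0.38 to -0.18 (neither called). For the interaction of line and stage no gene of 14938 passed with edgeR or limma-voom and 1 with DESeq2, with 710 genes (4.75%) at an unadjusted p under 0.05. Among the 10 genes, only Igfbp4 was under that unadjusted level. The fall of Igfbp4 and Igfbp2 and the rise of Irs1 in ctrl mice alone are thus not shown to differ from those of FL1 mice.

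**Figure D4:**
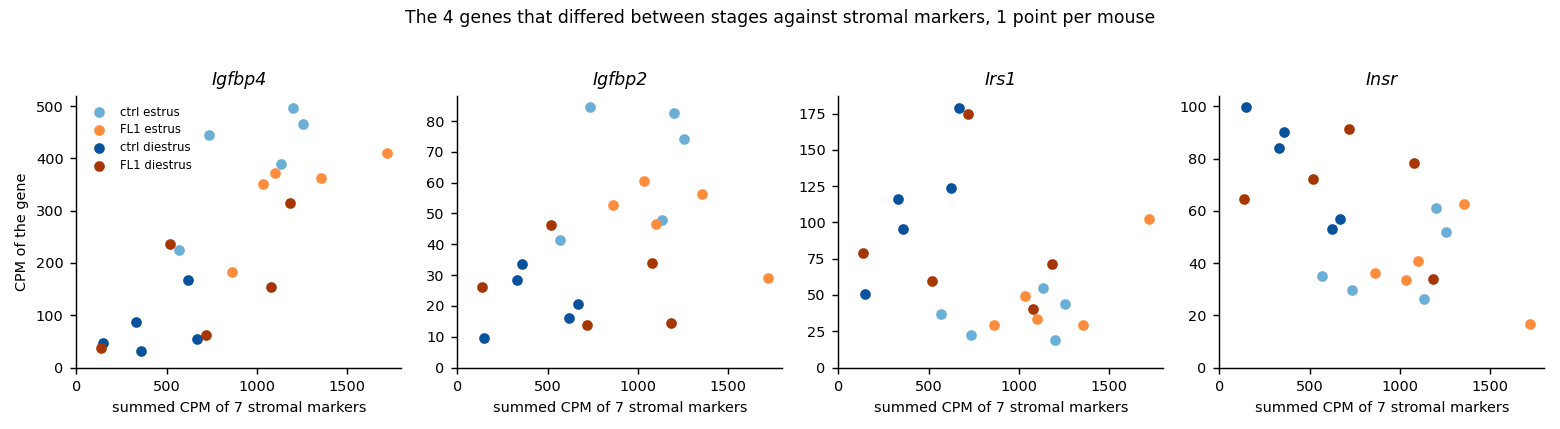
CPM of Igfbp4, Igfbp2, Irs1 and Insr (vertical axes) against the summed CPM of the 7 stromal fibroblast markers (horizontal axes), with 1 point per mouse and a colour per group. Igfbp4 was at 37.1 and 47.8 CPM in the mice with the lowest stromal sums, 138 and 147 CPM, and at its lowest, 32.3 CPM, in a mouse with a sum of 359 CPM. The points of Irs1 and Insr lay mostly higher in diestrus.

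The promoter sequences of Igfbp4, Igfbp2 and Irs1 are shown because these genes changed with stage in ctrl mice, the first pair down and Irs1 up. RefSeq promoters (GRCm38.p6) were matched by symbol for 8 of the 10 genes. Insr and Pappa had none. The 250 bases before the start, on the strand of the gene, were searched on both strands for GGGCGG (GC box), CACGTG (E-box), TGACGTCA (CRE), GTAAACA (FoxO site), AAGGTCA (SF-1 site), CCAAT and TATAAA, and matches are in capitals, with a neighbouring or overlapping match running on. Of 32851 promoters in the table, 32.7% held a GC box, 6.02% an E-box, 1.55% a CRE, 3.17% a FoxO site, 4.08% an SF-1 site, 33.9% a CCAAT and 12.4% a TATAAA.
Igfbp4, chr11:99040994-99041243, plus strand: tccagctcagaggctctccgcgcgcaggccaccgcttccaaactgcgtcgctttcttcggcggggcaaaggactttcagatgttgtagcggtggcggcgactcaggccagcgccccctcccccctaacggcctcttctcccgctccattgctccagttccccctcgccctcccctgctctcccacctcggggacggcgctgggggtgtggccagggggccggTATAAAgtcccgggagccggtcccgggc
Igfbp2, chr1:72824230-72824479, plus strand: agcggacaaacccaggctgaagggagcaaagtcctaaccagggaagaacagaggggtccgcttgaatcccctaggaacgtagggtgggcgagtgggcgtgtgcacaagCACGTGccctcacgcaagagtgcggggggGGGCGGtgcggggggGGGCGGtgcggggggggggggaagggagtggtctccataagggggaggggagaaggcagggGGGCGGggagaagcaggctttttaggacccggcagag
Irs1, chr1:82291440-82291689, minus strand: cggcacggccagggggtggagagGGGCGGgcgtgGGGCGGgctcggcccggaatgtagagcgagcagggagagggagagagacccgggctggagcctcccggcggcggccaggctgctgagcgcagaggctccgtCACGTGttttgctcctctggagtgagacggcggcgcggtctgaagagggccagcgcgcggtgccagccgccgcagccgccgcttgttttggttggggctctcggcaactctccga
Igfbp4 held a TATAAA 28 bases before the start and no other motif of the 7. Igfbp2 held 3 GC boxes and 1 E-box, and Irs1 held 2 GC boxes and 1 E-box. E-boxes were also in the promoters of Irs2 and Igf2r, and no member's promoter held the FoxO or CRE letters in this window. The GC content was 69.2% for Igfbp4, 67.2% for Igfbp2 and 72.4% for Irs1, beside a median of 52.4% over all promoters. Igfbp2 has a further start in the table, whose window held none of the 7 motifs.

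Other genes of the pathway were taken as 4 lists of 63 genes in all. Of the ligands, Igf2, Ins1 and Ins2 had no read in any of the 20 libraries, and neither had Igfals and Irs4. A count of 0 allows up to 3 reads, or 0.344 to 0.547 CPM per library, for counting error only. In GENCODE M21 Igf2 is overlapped on its strand by Gm49394 and Mir483, and reads in a shared stretch may have been set aside as ambiguous. Among the ligands only Igf1 had counted reads.

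In ctrl mice 3 of 51 list genes tested rose in diestrus and none fell, beside 1.36% of all genes tested. They were Grb14, an adaptor that inhibits the insulin receptor, Pik3r1, the regulatory subunit of PI3K, and Foxo1, a transcription factor that AKT keeps out of the nucleus. Grb14 was at 167, 147, 314, 361 and 491 CPM in ctrl estrus and at 757, 792, 1299, 1345 and 909.9 CPM in ctrl diestrus. The groups did not overlap, and the log2 change was 1.78 (SE 0.30, adjusted p = 0.00690). Foxo1, one of the most abundant genes of the pathway, had 992 to 1205 CPM in ctrl estrus and 1292 to 2474 CPM in ctrl diestrus (log2 change 0.98, SE 0.19, adjusted p = 0.0143). Pik3r1 had 111.3 to 146 CPM in estrus and 200.2 to 306 CPM in diestrus (log2 change 0.96, SE 0.18, adjusted p = 0.0141), and its adjusted p was 0.0719 with all 20 samples in 1 fit. For each of these 3 genes every ctrl diestrus mouse lay above every ctrl estrus mouse, as for 1.82% of all genes.

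Over both lines 5 of 55 list genes changed: Grb14, Foxo1 and Rictor rose and Pappa2 and Deptor fell, beside 3.17% of all genes. Pappa2 is counted here although it passed the filter on low counts through estrus libraries alone. Grb14 rose by 1.84 (SE 0.27, adjusted p = 1.58e-04) and Foxo1 by 0.97 (SE 0.15, adjusted p = 3.38e-04), and both calls held in all 20 fits that left out 1 mouse and with the stromal marker score. In FL1 mice alone Grb14 was at 95.7 to 352 CPM in estrus and 318 to 1599 CPM in diestrus (log2 change 1.88, adjusted p = 0.0596), and Foxo1 at 457 to 1111 and 1113 to 1992 CPM (0.94, adjusted p = 0.104). Without library 1 of FL1 diestrus both passed, at 2.02 (adjusted p = 0.0167) and 1.03 (adjusted p = 0.0297), and Grb14 also passed without FL1 estrus mouse 1 (2.23, adjusted p = 0.0379).

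The remaining calls were smaller or rested on few reads. Rictor, a subunit of the mTOR complex 2, rose by 0.91 (SE 0.24, adjusted p = 0.0333), and Deptor, an inhibitor that binds mTOR, fell by 0.62 (SE 0.17, adjusted p = 0.0358). Rictor lost its call in 7 of the 20 fits that left out 1 mouse (ctrl estrus 3, ctrl diestrus 1, 4 and 5, FL1 estrus 3 and FL1 diestrus 3 and 5, adjusted p of up to 0.0776), and Deptor in 11 (ctrl estrus 3 to 5, ctrl diestrus 1 and 4, FL1 estrus 2 and 4 and FL1 diestrus 2 to 5, adjusted p of up to 0.0754). Both lost it with the stromal marker score (adjusted p = 0.425 and 0.331), and Deptor with a replicate block (adjusted p = 0.0563). Pappa2, a protease that cuts IGFBP5, had no read in any of the 10 diestrus libraries and at most 49 reads in estrus. Pappa2 therefore passed the filter on low counts only through estrus libraries, which fixed the direction of its change. The adjusted p of 0.0166 was that of its stage effect over both lines. Its mean in estrus was 2.45 CPM in ctrl and 2.25 CPM in FL1 mice. Against a floor of 3 reads per library Pappa2 was at least 5.35-fold and 4.70-fold lower in diestrus, and these bounds were not tested. In ctrl estrus only mice 2 and 4 were above that floor, and the bound was 2.73-fold without mouse 4 and 4.14-fold without mouse 2. Its adjusted p was 0.103 with the stromal marker score.

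By list, the 8 ligands, binding proteins and proteases tested over both lines had a median log2 change of -1.04 from estrus to diestrus, with 7 of 8 negative, beside a median of 0.02 over all genes tested. Only Pappa2 among them passed, a gene that entered the test through estrus libraries alone, and not with the stromal marker score. The 7 stromal markers had a median of -0.93 in the same fit, all 7 negative. The other medians were -0.07 for the 13 receptor-proximal genes, 0.08 for the 20 genes of PI3K, AKT and FoxO, and 0.06 for the 14 genes of the mTOR branch. The stanniocalcins Stc1 and Stc2, which inhibit PAPP-A, had log2 changes of -0.80 (adjusted p = 0.118) and -1.97 (adjusted p = 0.273). Between the lines none of the list genes passed in either stage or adjusted for stage. The lowest p in estrus were those of Ddit4, an inhibitor of mTOR complex 1 (log2 difference -1.02, adjusted p = 0.0606), and Socs3, a feedback inhibitor of cytokine and insulin signalling (-1.39, adjusted p = 0.180). All 5 FL1 estrus mice had less Ddit4 (100.4 to 245 CPM) than any ctrl estrus mouse (259 to 450.2 CPM), as did 1.71% of all genes. Ddit4 passed without FL1 estrus mouse 2 (adjusted p = 0.0489) or 5 (adjusted p = 0.0296), with DESeq2 (0.00724), with limma-voom (0.0351) and without a filter (0.00263), and Socs3 without a filter (0.0310). In diestrus the lowest p were those of Pik3cd (-0.68, adjusted p = 0.835) and Foxo1 (-0.48, adjusted p = 0.857). Adjusted for stage, Socs3 was at -1.10 (adjusted p = 0.118, and 0.0425 without ctrl diestrus mouse 1) and Foxo1 at -0.47 (adjusted p = 0.130). For the interaction the lowest were Pik3r1 (-0.96, adjusted p = 0.982) and Ddit4 (0.81, adjusted p = 1.00).

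**Figure D5:**
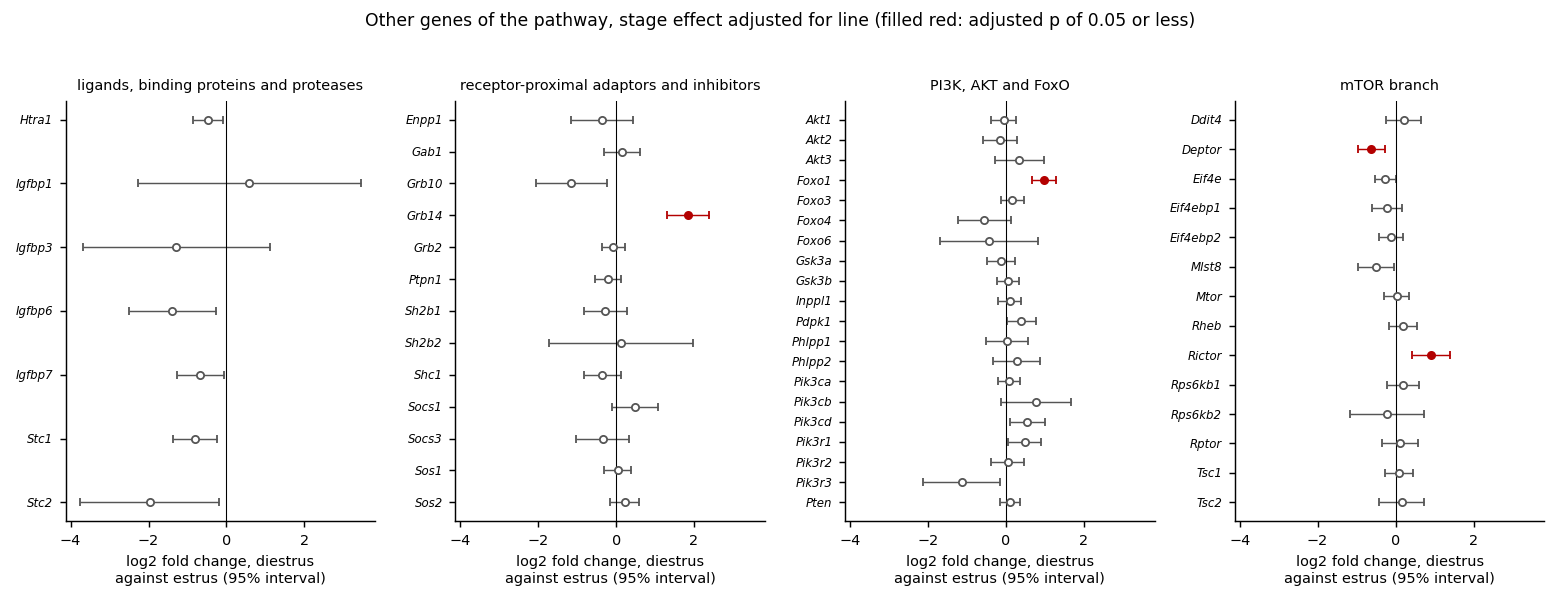
Log2 fold changes of diestrus against estrus, adjusted for line (horizontal axes), with 95% intervals, for the tested genes of the 4 pathway lists except Pappa2, which had no read in diestrus. Filled red points passed an adjusted p of 0.05: Grb14, Foxo1, Rictor (right of 0) and Deptor (left of 0).

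Sequence shared with other genes at the 3′ end concerned 2 of the 10 genes, and antisense genes overlapped further ones. The last 500 bases of Igfbp4 transcripts hold a repeat that matches 303 other genes at 90% identity or more over up to 205 bases, and how many of its reads were dropped as multimapping was not measured. The last 500 bases of Irs1 share 489 bases with the antisense gene Gm9747. No other gene of the 10 had a match of 100 bases or more. Antisense genes overlap Igf1 (Igf1os, at most 18 reads in a library), Igf2r (Airn, at most 95 reads), Insr (no read) and Irs2 (at most 1 read).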

How the data were processed

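GCs of 20 mice were measured, 1 library each, in the 4 groups given by the strain and stage labels. The authors prepared QuantSeq 3′ libraries, aligned the reads with STAR to GRCm38 and deposited raw read counts per Ensembl gene. The strand setting of their counting is not given in the sources used here. Rows that name no gene (unmapped, multimapping, no feature, ambiguous) were kept out, and 48.9% to 58.4% of all reads lay on genes, with 23.2% to 32.8% multimapping. Multimapping reads are not counted, so genes with repeated 3′ ends are undercounted. Symbols came from GENCODE M21 (55227 of 55487 identifiers).

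Counts were tested with edgeR 4.0.16 (quasi-likelihood F test, TMM scaling, filterByExpr with a minimum count of 10), with Benjamini-Hochberg adjustment over all genes tested and a threshold of 0.05. Each comparison of 2 groups used its 10 samples. The effects of line and stage, each adjusted for the other, and their interaction used all 20. Standard errors and 95% intervals came from the F statistics and their degrees of freedom. CPM were computed with TMM library sizes and are not scaled to length. Depth limits low genes, and a count of 0 allows 3 reads per library for counting error only. Scripts were tested on simulated data with known changes. Alternatives were DESeq2 1.42.0, limma-voom (limma 3.58.1), other size factors, other filters, robust estimation, a replicate block, all samples in 1 fit, leaving out each mouse and, added after seeing the data, the mean level of the 7 stromal markers as a covariate. Repeated 3′ ends were searched with BLAST 2.17.0.

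All 10 genes were tested in every comparison, and not every estimate is printed. Of the 4 pathway lists, genes that passed were named, or otherwise the 2 with the lowest p. The 3 genes most like each called member were those with the highest Pearson r of log2 CPM among genes with a mean of at least 10 counts. The members and lists were chosen with earlier results of these data known.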

Additional observations from a re-analysis of the deposited data

Results flagged for a closer look

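Of 74 groups of 5 mice examined for the 10 genes and the 9 other genes named, 5 held a mouse far from the other 4 by Dixon's ratio (critical value 0.71), where chance flags about 1 in 20 groups. Irs1 was at 102.6 CPM in FL1 estrus mouse 1, with the next mouse at 49.0 CPM, and at 174 CPM in FL1 diestrus mouse 5, with the next at 79.1 CPM. The latter mouse was also apart for Irs2, at 81.9 CPM against 22.8 CPM in the next mouse. Igfbp4 was at 183 CPM in FL1 estrus mouse 2, below the next mouse at 350.0 CPM. Foxo1 was at 1292 CPM in ctrl diestrus mouse 1, below the next mouse at 2231 CPM. Why these mice lay apart was not tested.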

How the results depend on the processing

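Most values of the 10 genes kept their direction and their side of the threshold: 585 did under the alternative settings, where 6 turned direction, 5 lost and 4 gained a call, and 955 in the fits that left out 1 mouse, where 33 turned direction, 9 lost and 3 gained a call. The counts of genes called moved more. With DESeq2 they were 425 (FL1 against ctrl in estrus), 118 (the same in diestrus), 526 (diestrus against estrus in ctrl), 265 (the same in FL1), 438 (line adjusted for stage), 873 (stage adjusted for line) and 1 (interaction), against 100, 32, 175, 29, 181, 473 and 0 with edgeR. Without a filter on low counts they were 373, 1.1e+02, 348, 299, 319 and, for the interaction, 6, and limma-voom called 21 genes between the lines in diestrus. With all 20 samples in 1 fit 65 genes were called between the stages in FL1 mice. With the stromal marker score, chosen after seeing the data, 45 were called between the lines in estrus, 50 and 19 between the stages in ctrl and FL1 mice, and 160 for the adjusted stage effect.

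Of the 10 genes, 1 (Igfbp5) was called between the lines in estrus with DESeq2 or without a filter, 2 between the stages in FL1 mice without a filter, and 1 (Irs1) between the stages in ctrl mice and over both lines with the stromal marker score. Of the list genes, DESeq2 called 1, 5 and 4 and the fit without a filter 2, 5 and 2 between the lines in estrus and between the stages in ctrl and in FL1 mice. Limma-voom called 1 in the first of these, all 20 samples in 1 fit called 2 in the last, and the stromal marker score left 2 for the adjusted stage effect.

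Leaving out 1 mouse at a time gave 66 (FL1 mouse 1) to 130 genes between the lines in estrus, with 0 to 1 of the 10 genes (Igfbp5 without FL1 mouse 2) and 0 to 1 of the list (without FL1 mouse 2 or 5), and 21 (FL1 mouse 4) to 32 genes in diestrus. Between the stages in ctrl mice it gave 77 (diestrus mouse 5) to 176 genes, also moved by estrus mice 2, 3 and 4 and diestrus mouse 3, with 1 to 3 of the 10 genes, the lowest without estrus mouse 2 or diestrus mouse 3. In FL1 mice it gave 13 (diestrus mouse 3) to 178 genes (diestrus mouse 1), also moved by diestrus mice 2, 4 and 5, and 0 to 2 of the list. For the adjusted line effect it gave 0 to 1 of the list (Socs3 without ctrl diestrus mouse 1), and for the adjusted stage effect 324 to 728 genes (FL1 diestrus mouse 1), 2 (FL1 diestrus mouse 5) to 5 of the 10 genes and 3 to 6 of the list.

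Some changes that were not called turned direction. For the adjusted line effect, Irs1 went from 0.018 to -0.21 with limma-voom, -0.017 with a replicate block and -0.11 with the stromal marker score, Igfbp4 from 0.38 to -0.18 with the latter, and Pappa from -0.27 to 0.21 with limma-voom. The adjusted stage effect of Igf2r went from 0.17 to -0.13 with the stromal marker score. Leaving out a mouse gave log2 differences between the lines in estrus of -0.012 to 0.22 for Igf2r, -0.36 to 0.10 for Insr and -0.51 to 0.22 for Irs2, and in diestrus of -0.27 to 0.0499 for Igf1r and -0.29 to 0.0026 for Insr. Stage changes ran from -0.21 to 0.015 for Igf2r and -0.54 to 0.034 for Igfbp5 in ctrl mice, and from -0.17 to 0.78 for Irs2 in FL1 mice. The adjusted line effect ran from -0.23 to 0.15 for Irs1 and -0.21 to 0.0285 for Igfbp2, the adjusted stage effect of Igf1 from -0.086 to 0.064, and the interaction of Insr from -0.26 to 0.19. The cause of these changes was not tested.

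The replicate numbers shared by the groups do not pair mice: same-numbered mice had correlations of their deviations from the group means of -0.12 to 0.12, and 1 of 20 pairs was over 0.1. With the replicate block 58 genes were called between the lines in estrus and 13 in diestrus, and the counts of the 10 genes called were 0, 0, 3, 0, 0, 4 and 0 in the order above, as without it. Depth limits the genes with few reads, among them Pappa (0 reads in 2 of 20 libraries) and Pappa2.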
